A study of Mus musculus with 3 samples.

Results

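Cdkn1a, Cdkn1b, Cdkn2c, Cdkn2d, Gadd45a, Gadd45b and Gadd45g, 7 of the 28692 genes named in the wild-type matrices, were read by symbol in T cells that passed 3 filters, namely 1000 or more UMIs, 500 or more detected genes and no more than 10% of UMIs from mitochondrial genes. Cycling and non-cycling cells were read apart. A UMI (unique molecular identifier) marks 1 captured transcript molecule. The genes were chosen with earlier results of these data known, among them the ratio of Cdkn1a between heart and spleen, so their values are descriptions and were given no test.

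The cells were TEa cells, CD4+ T cells with a transgenic receptor for a BALB/c alloantigen, taken as naive, congenically marked cells and transferred into C57BL/6 (B6) mice that then received BALB/c hearts. Both groups used here were wild-type TEa cells sorted 7 days after transplantation, from the heart allograft or from the spleen, with 1 library each. How many mice each library came from is not stated. An Ldha-/- TEa library from spleen, also of day 7, was not analysed here. Cells of both groups carry the same transgenic receptor, by their labels.

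Cyclin-dependent kinase inhibitors bind the kinases that drive a cell through its cycle. The CIP/KIP proteins p21 (Cdkn1a) and p27 (Cdkn1b) act on several cyclin and kinase pairs, and the INK4 proteins p18 (Cdkn2c) and p19 (Cdkn2d) on the kinases of D-type cyclins. p21 is a classical target of the tumour suppressor p53, and p27 is held at high levels in resting T cells and removed after activation. The Gadd45 genes encode small stress-induced proteins that bind p21, PCNA and the kinase MEKK4. Gadd45b and Gadd45g are also known for sustaining p38 signalling and interferon-gamma production in Th1 cells.

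The promoters of the genes with the largest differences are shown first, so that the elements close to their start sites can be read beside the levels. RefSeq windows of GRCm38.p6, 250 bases before to 50 after a start site, were matched for all 7 genes. Cdkn1a and Cdkn2c have 2 windows each, at 2 annotated start sites. The first Cdkn1a window (chr17:29090729-29091028, plus strand) holds, in capitals, a p53 site that differs from the p53 consensus at 1 position at most. It lies 51 to 32 bases before the start. The second Cdkn1a window (chr17:29093519-29093818, plus strand) has 2 GC boxes (GGGCGG) in capitals. The Gadd45b window (chr10:80929841-80930140, plus strand) has a TATA box (TATAAA) and 2 CCAAT boxes (CCAAT) in capitals, and that of Cdkn2c (chr4:109666707-109667006, minus strand) has 4 GC boxes in capitals.

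Cdkn1a first window: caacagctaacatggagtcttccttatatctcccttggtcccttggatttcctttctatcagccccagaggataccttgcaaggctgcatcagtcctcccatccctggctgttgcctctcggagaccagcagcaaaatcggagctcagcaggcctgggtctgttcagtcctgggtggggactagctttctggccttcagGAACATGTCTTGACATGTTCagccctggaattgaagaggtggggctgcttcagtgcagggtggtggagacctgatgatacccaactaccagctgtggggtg

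Cdkn1a second window: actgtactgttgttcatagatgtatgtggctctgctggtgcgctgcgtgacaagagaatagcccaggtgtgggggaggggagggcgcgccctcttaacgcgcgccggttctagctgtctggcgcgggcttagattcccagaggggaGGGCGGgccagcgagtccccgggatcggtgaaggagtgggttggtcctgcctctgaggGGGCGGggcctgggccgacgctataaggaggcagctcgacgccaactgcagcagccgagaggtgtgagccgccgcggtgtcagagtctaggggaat

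Gadd45b window: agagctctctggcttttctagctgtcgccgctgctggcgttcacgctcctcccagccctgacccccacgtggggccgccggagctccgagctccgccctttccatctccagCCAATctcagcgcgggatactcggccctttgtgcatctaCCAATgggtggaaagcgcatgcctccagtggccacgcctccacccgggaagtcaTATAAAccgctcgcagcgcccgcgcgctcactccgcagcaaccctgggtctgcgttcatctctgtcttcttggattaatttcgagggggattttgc

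Cdkn2c first window: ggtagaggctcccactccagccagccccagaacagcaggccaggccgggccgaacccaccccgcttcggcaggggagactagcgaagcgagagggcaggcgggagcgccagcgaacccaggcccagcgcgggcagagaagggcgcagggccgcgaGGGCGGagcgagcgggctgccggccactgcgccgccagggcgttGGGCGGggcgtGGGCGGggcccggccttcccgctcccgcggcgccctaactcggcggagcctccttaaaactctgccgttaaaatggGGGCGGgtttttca

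Motifs were searched on both strands and were chosen after the expression values had been seen. The p53 site with at most 1 mismatch occurred in 29 of 32851 promoter windows of the same length (0.0883%), and an exact p53 site in 3 windows, none of them of these genes. GC boxes occurred in 35.7% of all windows, CCAAT boxes in 37.4% and TATA boxes in 13.6%. The Cdkn2d window held 5 GC boxes and 1 NF-kB site, a motif found in 8.46% of all windows. An AP-1 site (TGANTCA, 7.81% of windows), a CRE (TGACGTCA, 1.79%) and an E2F site (TTTCCCGC, TTTGGCGC, TTTGCCGC or TTTCGCGC, together 2.26%) had no match in the windows of the 7 genes. These matches describe letters only.

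After filtering, 3984 heart cells and 6559 spleen cells remained, with medians of 8234.5 and 7988 UMIs per cell. A cell was called cycling with at least 2 UMIs of 10 cycling markers after its UMIs had been thinned at random to 1000. By this rule 381 heart cells (9.56%) and 148 spleen cells (2.26%) were cycling, with 8082875 and 2324034 UMIs in all. The non-cycling cells held 34120297 UMIs in heart and 53689131 in spleen. T cell markers summed to 10923 to 12848 CPM over the 4 groups, and cardiomyocyte markers were at 0 in all of them. Levels are CPM, the UMIs of a gene over all cells of a group scaled to the same total, with exact 95% Poisson intervals that cover counting error only. With 1 library per tissue, the effect of tissue cannot be told apart from that of the library. Cells are not replicates, and no test was possible.

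Among the non-cycling cells, 2 of the 6 genes that reached 10 CPM in either tissue were at least 2-fold higher in heart, Cdkn1a and Gadd45b, and 0 were at least 2-fold lower. Of all 6900 genes with this level, 8.94% were higher and 9.16% lower by that measure, with a median log2 ratio of -0.14. Cdkn1a and Gadd45b were ranked 11 and 47 from the highest ratio. Gadd45g did not reach 10 CPM and was not counted. In cycling cells 5 genes reached that level. Cdkn1a and Gadd45b were again at least 2-fold higher in heart and Cdkn2c was at least 2-fold lower, against 5.06% and 7.29% of 6955 genes.

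**Figure D1:**
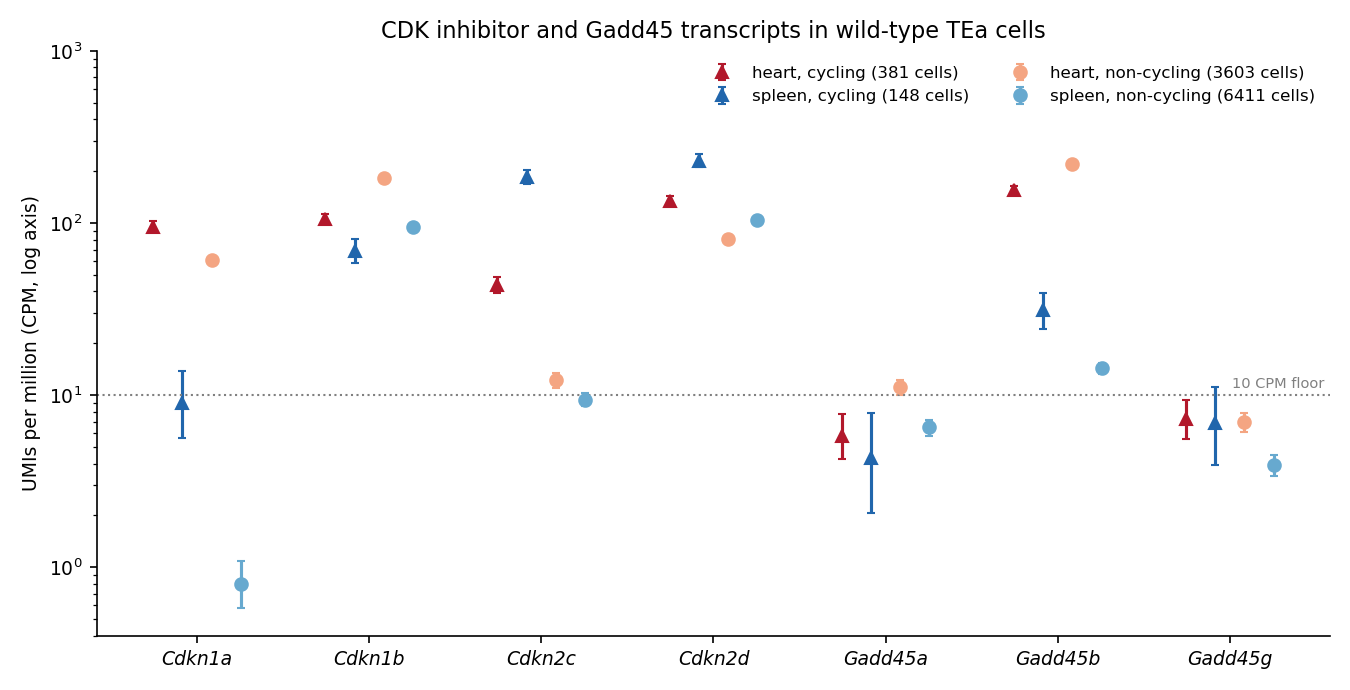
Level of each of the 7 genes in CPM on a log axis, in heart and spleen cells, cycling and non-cycling apart, with exact 95% Poisson intervals as bars (counting error only; 1 library per tissue). Cdkn1a and Gadd45b were higher in heart in both states, while Cdkn2c was highest in cycling spleen cells at 185 CPM.

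Cdkn1a (ENSMUSG00000023067; chromosome 17, 29090976 to 29100727, plus strand, GRCm38) was the inhibitor that differed most between the tissues. Non-cycling heart cells held 2083 UMIs or 61.0 CPM (58.5 to 63.7), against 43 UMIs or 0.801 CPM (0.580 to 1.08) in non-cycling spleen cells. The level was 76.2-fold higher in heart (56.4 to 106), or 5.11 as log2 of the ratio of CPM + 1. Cycling heart cells held 95 CPM (88.4 to 102) and cycling spleen cells 9.04 CPM (5.59 to 13.8), from 21 UMIs. This was 10.5-fold higher in heart (6.83 to 17.1; log2 ratio 3.26), and 2.64 on the log2 scale after thinning. In order of level the groups ran non-cycling spleen, cycling spleen, non-cycling heart and cycling heart cells, with no overlap of their counting intervals. AC167363.2 overlaps Cdkn1a on the opposite strand, and the strand setting of the counting is not stated.

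Cdkn1a UMIs were unevenly spread over the heart cells. Among non-cycling cells 26.3% held at least 1 (24.9 to 27.8%), against 0.484% in spleen (0.329 to 0.686%), at median depths of 7917 and 7955 UMIs. After thinning to 1000 UMIs the shares were 5.61% and 0.0468%. A single heart cell held 52 UMIs, and the tenth of non-cycling heart cells with the most held 67.3% of them. Of cycling cells, 59.8% held a UMI in heart and 10.1% in spleen, at medians of 19482 and 14518 UMIs, and 7.09% and 1.35% did so after thinning. The highest count in a cell was 22 in cycling heart cells and 3 in cycling spleen cells.

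**Figure D2:**
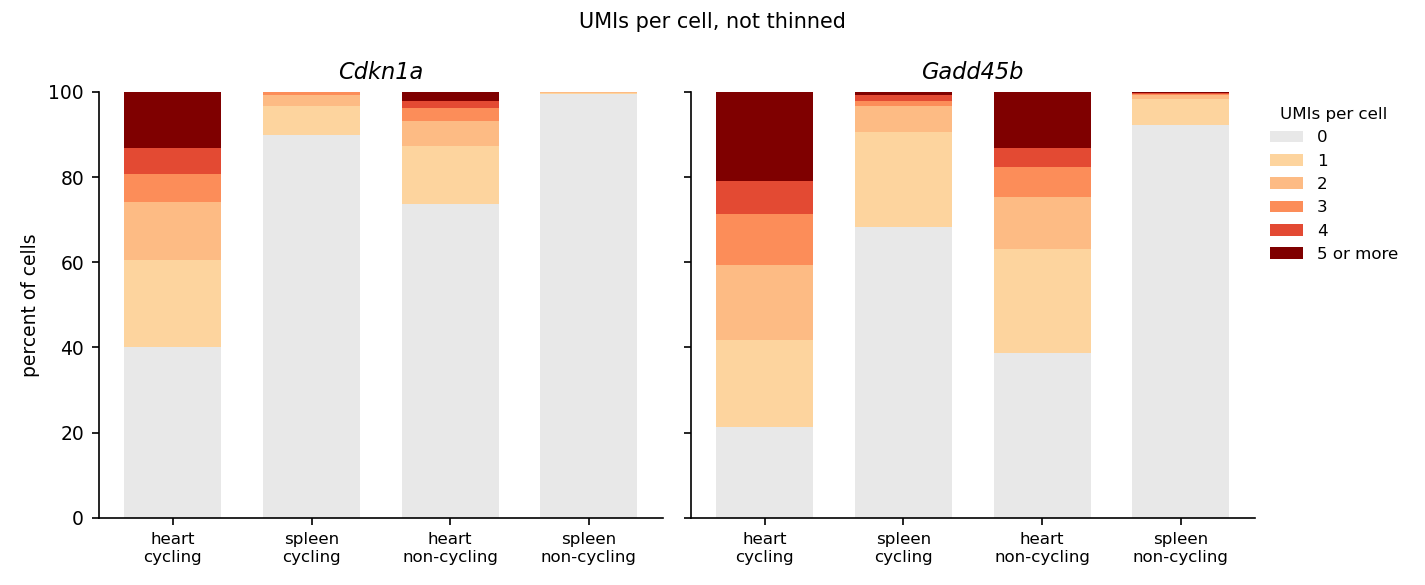
Share of cells, in percent, by the number of UMIs they held of Cdkn1a and of Gadd45b, in cycling and non-cycling cells of heart and spleen, with no thinning. Cells without a Cdkn1a UMI made up 73.7% of non-cycling heart cells and 99.5% of non-cycling spleen cells.

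Cdkn1b (ENSMUSG00000003031; chromosome 6, 134920401 to 134925513, plus strand) was detected in cells of every group. It stood at 182 CPM (177 to 186) in non-cycling heart cells and 94.5 CPM (91.9 to 97.1) in non-cycling spleen cells, 1.93-fold higher in heart (1.85 to 2.0). The log2 ratio of 0.94 was below the 2-fold mark. It passed the mark, at 1.02, when every cell had equal weight. It also passed, at 1.05, when all cells outside the cycling cluster (cluster 5) were taken as non-cycling. That alternative was chosen after seeing the data. Cycling heart cells held 105 CPM (98.1 to 112) and cycling spleen cells 68.8 CPM (58.6 to 80.4), 1.53-fold higher in heart (1.29 to 1.82). Unlike Cdkn1a, Cdkn1b was lower in cycling than in non-cycling cells of either tissue, at 0.577 of the non-cycling level in heart (0.537 to 0.621) and 0.729 in spleen (0.619 to 0.853). After thinning, the log2 ratio was -0.64 in heart, in place of -0.79, and -0.07 in spleen, in place of -0.45. The difference between cycling and non-cycling cells was not tested.

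Cdkn2c (ENSMUSG00000028551; chromosome 4, 109660876 to 109667189, minus strand) followed the cycling state. It stood at 43.8 CPM (39.4 to 48.6) in cycling heart cells and 12.2 CPM (11 to 13.4) in non-cycling heart cells, 3.60-fold higher in cycling cells (3.12 to 4.16). In spleen the levels were 185 CPM (168 to 204) in cycling cells and 9.41 CPM (8.60 to 10.3) in non-cycling cells, 19.7-fold higher in cycling cells (17.3 to 22.5). Cycling heart cells were therefore at 0.236 of the level of cycling spleen cells (0.205 to 0.272; log2 ratio -2.06), while the non-cycling cells were within 2-fold of each other (1.29; 1.13 to 1.48). The cycling log2 ratio was -1.43 after thinning and -2.65 when cluster 5 defined the cycling cells. Cycling markers themselves summed to 3129 CPM in cycling heart cells and 4913 CPM in cycling spleen cells. In cycling heart cells 11 of 18 G2/M genes were at least 2-fold lower, against 7.29% of all genes. The part of these differences in the Cdkn2c ratio was not tested.

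Cdkn2d (ENSMUSG00000096472; chromosome 9, 21288410 to 21291407, minus strand) had the same order of states with smaller differences. Cycling cells held 135 CPM (127 to 143) in heart cells and 230 CPM (211 to 251) in spleen cells, so heart was at 0.585 of the spleen level (0.527 to 0.650). Non-cycling cells held 80.4 CPM (77.4 to 83.5) in heart cells and 104 CPM (101 to 107) in spleen cells, a ratio of 0.775 (0.740 to 0.811). Cycling cells were 1.68-fold higher than non-cycling cells in heart (1.56 to 1.80) and 2.22-fold higher in spleen (2.03 to 2.43). The spleen log2 ratio of 1.14 was 0.83 with mitochondrial, ribosomal protein and Malat1 UMIs left out of the totals, and 0.63 with cycling at 1 thinned UMI, both below the 2-fold mark. The heart ratio in cycling cells was -0.77 on the log2 scale, and -1.26 when cluster 5 defined the cycling cells.

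**Figure D3:**
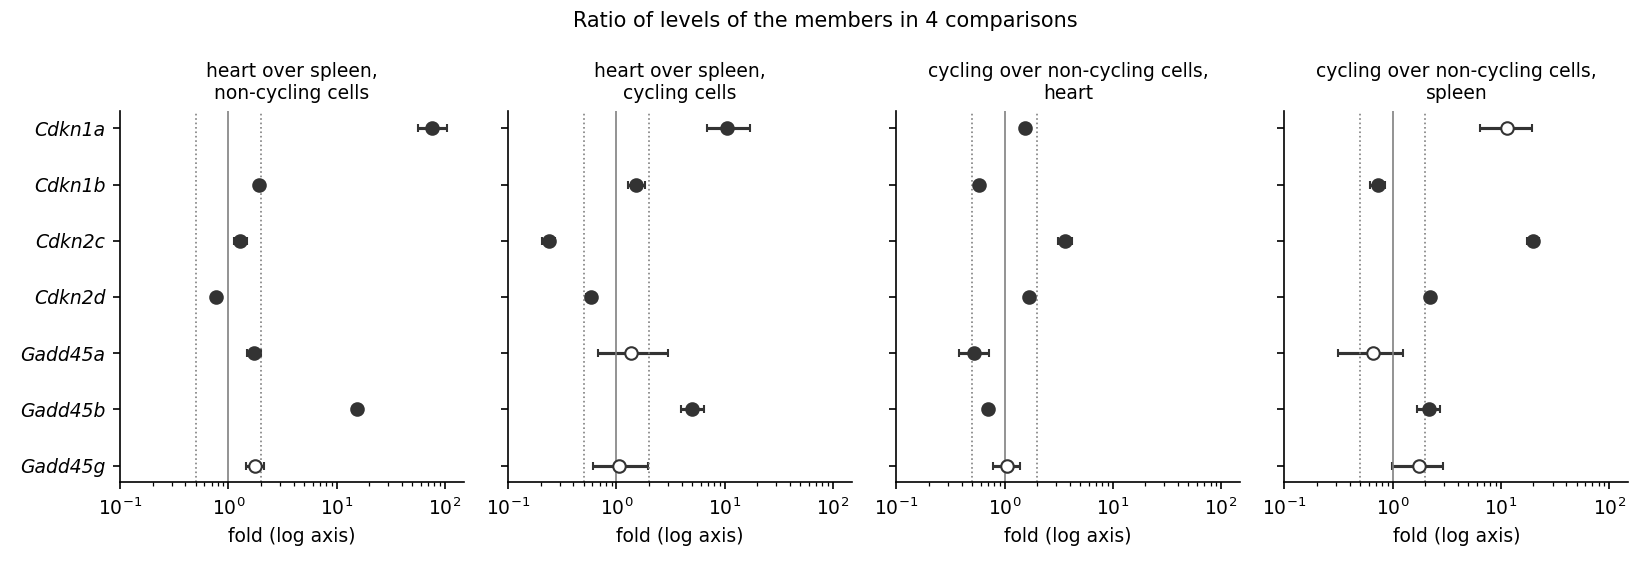
Ratio of each gene on a log axis in the 4 comparisons, heart over spleen and cycling over non-cycling cells, with exact 95% intervals for counting error and dotted lines at 2-fold. Open points are genes under 10 CPM in both groups. Cdkn1a was 76.2-fold higher in non-cycling heart cells than in non-cycling spleen cells, and Cdkn2c 19.7-fold higher in cycling than in non-cycling spleen cells.

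Gadd45b (ENSMUSG00000015312; chromosome 10, 80930073 to 80932204, plus strand) was the Gadd45 gene that differed most. Non-cycling heart cells held 219 CPM (214 to 224) and non-cycling spleen cells 14.3 CPM (13.3 to 15.3), 15.3-fold higher in heart (14.2 to 16.5; log2 ratio 3.85). At least 1 UMI was found in 61.2% of non-cycling heart cells and in 7.78% of non-cycling spleen cells, and in 17.7% and 1.22% after thinning. Cells with 5 or more UMIs made up 13.2% of the non-cycling heart cells and 0.281% of the non-cycling spleen cells. Cycling heart cells held 155 CPM (147 to 164) and cycling spleen cells 31.0 CPM (24.2 to 39.0), 5.01-fold higher in heart (3.95 to 6.45).

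The cycling state went with Gadd45b in opposite directions. Cycling heart cells were at 0.709 of the level of non-cycling heart cells (0.667 to 0.753), whereas cycling spleen cells were 2.17-fold higher than non-cycling spleen cells (1.68 to 2.76). The spleen log2 ratio of 1.07 was below the 2-fold mark in 7 of 13 alternatives and was 0.56 after thinning. Without heart cluster 3, whose leading genes include Hspa1a, Hspa1b, Tgif1, Ifng and Gadd45b itself, the heart ratio was -0.22 on the log2 scale, against -0.49 with it.

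Gadd45a (ENSMUSG00000036390; chromosome 6, 67035096 to 67037457, minus strand) was sparse. It stood at 11.1 CPM (9.99 to 12.3) in non-cycling heart cells and 6.48 CPM (5.82 to 7.20) in non-cycling spleen cells, 1.71-fold higher in heart (1.47 to 1.98). Cycling heart cells held 5.81 CPM from 47 UMIs and cycling spleen cells 4.30 CPM from 10 UMIs, and the interval of their ratio ran from 0.674 to 3.00. E230016M11Rik overlaps this gene on the opposite strand. Gadd45g (ENSMUSG00000021453; chromosome 13, 51846678 to 51848468, plus strand) stayed under 10 CPM in the 4 groups, at 7.30 CPM in cycling heart cells, 6.88 CPM in cycling spleen cells, 6.95 CPM in non-cycling heart cells and 3.91 CPM in non-cycling spleen cells. Its non-cycling ratio was 1.78 (1.47 to 2.15). Of the Gadd45 genes, Gadd45b alone passed 2-fold between the tissues.

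Set by cycling state, 1 of 6 genes with 10 CPM was at least 2-fold higher in cycling heart cells, Cdkn2c, and 0 were lower, against 7.78% higher and 1.41% lower of 6591 genes. In spleen 3 of 4 such genes were at least 2-fold higher in cycling cells, Cdkn2c, Cdkn2d and Gadd45b, and 0 were lower, against 10.9% and 3.40% of 7117 genes. Cdkn1a was 1.56-fold higher in cycling heart cells (1.43 to 1.69) and 11.3-fold higher in cycling spleen cells (6.36 to 19.4), and was not counted in spleen because both levels were under 10 CPM. Heart cells called non-cycling still held cycling markers at 310 CPM, against 71.0 CPM in spleen, so the heart groups were less sharply split.

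Within the cycling cells, more S-phase or more G2/M UMIs split the heart cells into 84 and 247 with 50 ties, and the spleen cells into 32 and 104 with 12 ties. Cdkn1a stood at 148 CPM (132 to 166) in S-phase heart cells and 71.2 CPM (64.0 to 79.0) in G2/M heart cells, 2.09-fold higher in S phase (1.78 to 2.44). In spleen it stood at 19.7 CPM from 10 UMIs in S phase and 4.84 CPM from 8 UMIs in G2/M, 4.08-fold higher (1.45 to 11.9). Cdkn1b went the other way, at 65.1 CPM in S-phase and 122 CPM in G2/M heart cells, and at 43.4 and 77.4 CPM in those of spleen, which is 0.536 and 0.560 of the G2/M level. Cdkn2d was at 0.759 of its G2/M level in heart (0.651 to 0.883) and 0.395 in spleen (0.294 to 0.522). Cdkn2c was at 0.766 of its G2/M level in heart (0.582 to 0.998) and 0.790 in spleen (0.611 to 1.01). The Gadd45b ratios were 1.06 in heart (0.927 to 1.21) and 0.984 in spleen (0.525 to 1.75), with intervals on both sides of 1. The 26 S-phase and 53 G2/M heart cells, and 7 and 10 spleen cells, that differed by 1 UMI between the lists lie near the cut.

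**Figure D4:**
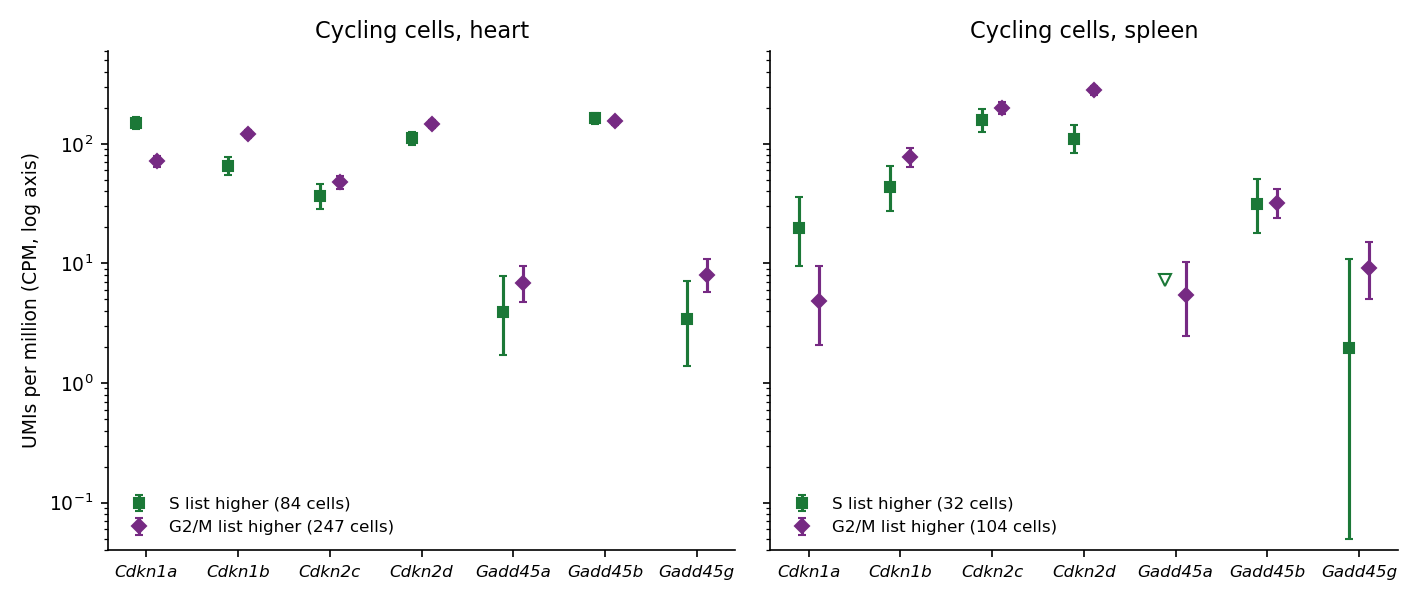
Level of each gene in CPM on a log axis in cycling cells with more S-phase UMIs and with more G2/M UMIs, in heart and spleen, with exact 95% Poisson intervals. An open triangle is the upper limit of a gene with 0 UMIs. Cdkn1a was 2.09-fold higher in S-phase than in G2/M heart cells, and Cdkn1b was lower in S-phase cells of both tissues.

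The joint clustering gave 9 groups of a library and a cluster with at least 100 cells, of which 3 were from heart and 6 from spleen. Cdkn1a was at 57.7, 70.6 and 80.6 CPM in heart clusters 1, 3 and 5, whose leading genes include Cxcr6 and Itgae, Hspa1a and Ifng, and Birc5 and Mki67. In spleen it was at 5.43 CPM in cluster 4, led by Ccl5 and Id2, and at 6.62 CPM in cluster 5. The other spleen clusters were 0 (Dapl1 and Klf2), 2 (Id3 and Egr2), 6 (Ifit3 and Ifit1) and 7 (Idi1 and Fdps), and they held 0 to 2 Cdkn1a UMIs each. The 48 UMIs of cluster 4 were therefore most of the gene's 64 UMIs in spleen. Because these genes were among those clustered, the levels describe the clusters and test nothing.

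Gadd45b stood at 191, 320 and 141 CPM in heart clusters 1, 3 and 5. In spleen it ranged between 7.05 CPM in cluster 0 and 29.8 CPM in cluster 5, and cluster 2 with 20.2 CPM and cluster 4 with 25.7 CPM lay between. Cluster 3 also held the highest Gadd45a, at 19.2 CPM (16.6 to 22.1), the highest Gadd45g, at 12.2 CPM (10.1 to 14.6), and the highest Cdkn1b, at 222 CPM (213 to 231). Without that cluster the non-cycling log2 ratio of Gadd45a was 0.23 in place of 0.69 and that of Gadd45g 0.23 in place of 0.69. Cdkn2c reached 224 CPM (203 to 247) in cycling spleen cluster 5, against 34.8 CPM (31.7 to 38.2) in heart cluster 5, and 5.62 to 21.9 CPM in the other 7 groups.

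**Figure D5:**
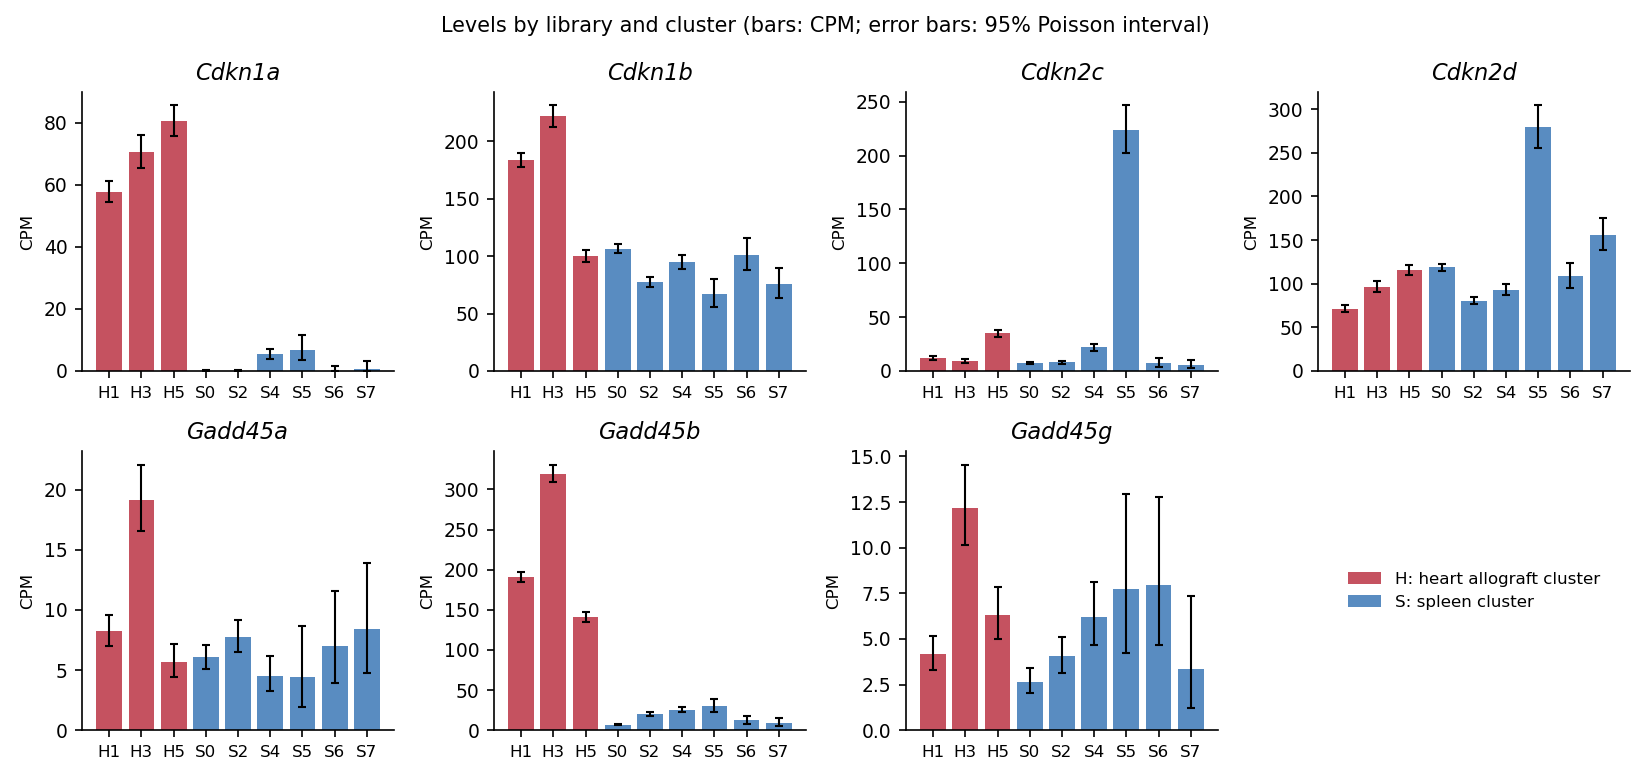
Level of each gene in CPM in the 9 groups of library and cluster with at least 100 cells, heart groups left of spleen groups, with exact 95% Poisson intervals. Gadd45b was at 141 to 320 CPM in the 3 heart groups and at 7.05 to 29.8 CPM in the 6 spleen groups.

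In heart cells not cycling, Cdkn1a and Gadd45b were higher in cells that held a UMI of Hspa1a or Hspa1b, inducible heat shock genes. Cdkn1a was at 109 CPM in the 394 such cells and 55.1 CPM in the other 3209, Gadd45b at 436 and 192 CPM, and Cdkn1b at 173 and 183 CPM. Gadd45a and Gadd45g were at 27.4 and 20.2 CPM in cells with a heat shock UMI, against 9.06 and 5.30 CPM in those without. In cells with an Ifng UMI both genes were higher as well, with Cdkn1a at 93.6 CPM and Gadd45b at 335 CPM, against 45.7 and 165 CPM in the cells without. Ifng encodes the Th1 cytokine interferon gamma. Other effector genes did not go with both. In cells with a UMI of Gzmb, a granzyme gene, Cdkn1a was 1.38-fold higher than in cells without (1.26 to 1.5) but Gadd45b was at 0.935 of the level (0.890 to 0.982). In cells with Gzmk, another granzyme gene, Cdkn1a was at 0.909 of the level without (0.831 to 0.993) and Gadd45b at 0.748 (0.713 to 0.785). For Il10, an anti-inflammatory cytokine gene, the ratios were 1.45 (1.29 to 1.63) and 0.978 (0.910 to 1.05).

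Heart cells with a UMI of Tcf7, a transcription factor of naive and stem-like T cells, held 45.2 CPM of Cdkn1a and those without 70.7 CPM. In spleen, cells with Tcf7 held 0.345 CPM of Cdkn1a from 17 UMIs and those without 5.80 CPM from 26 UMIs. The ratio was 0.0596 (0.0303 to 0.114). Spleen cells with the effector chemokine gene Ccl5 held 3.06 CPM of Cdkn1a and 28.8 CPM of Gadd45b, against 0.414 and 11.8 CPM in the rest. These Cdkn1a levels came from 24 and 19 UMIs, a ratio of 7.38 (3.87 to 14.2). Median depths were 7711.5 UMIs in heart cells with a heat shock UMI and 7955 in those without, and 8586.5 and 7778 UMIs for Ifng.

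Co-detection of the pair was read at equal depth. Of 202 non-cycling heart cells with a Cdkn1a UMI after thinning to 1000, 31.2% also held Gadd45b (24.9 to 38.1%), against 16.9% (15.6 to 18.2%) of the 3401 without. At 3000 UMIs, a depth chosen after seeing the data, the shares were 51.1% of 452 and 34.3% of 3122 cells. For Cdkn1b the shares were close, 17.3% of the cells with Cdkn1a and 18.1% of those without.

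Immediate early and dissociation response genes, heat shock genes among them, were mostly higher in the heart library. Of 18 such genes 16 had 10 CPM in non-cycling cells, with a median log2 ratio of 1.43. In heart 12 were at least 2-fold higher and 0 lower, against 8.94% and 9.16% of all genes. Hspa1a stood at 62.3 CPM in heart cells and 0.168 CPM in spleen cells, Hspa1b at 38.2 and 0.168 CPM, the phosphatase gene Dusp1 at 68.9 and 2.91 CPM, and Junb at 1470 and 140 CPM. Heat shock UMIs were in 10.9% of non-cycling heart cells and 0.250% of non-cycling spleen cells. In non-cycling cells, the lowest log2 ratios among the alternatives were 4.96 for Cdkn1a, without those cells, and 3.55 for Gadd45b, without heart cluster 3. Cells without a heat shock UMI can still carry this response. Leaving cells out therefore cannot measure its part in the ratios, which was not tested.

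RNA of other cells was read in the same way. The 88 heart cells and 24 spleen cells of the removed myeloid cluster held Cdkn1a at 401 and 8.42 CPM, and Gadd45b at 396 and 22.5 CPM. Barcodes with at most 50 UMIs held Cdkn1a at 84.5 CPM in heart cells and 1.45 CPM in spleen cells, and the macrophage gene Lyz2 at 236 and 6.54 CPM. Kept T cells held Lyz2 at 1.04 and 0.268 CPM. If all of that Lyz2 came from free RNA of this composition, the same RNA would carry 0.372 CPM of the 67.6 CPM of Cdkn1a in heart cells, and 1.12 of the 207 CPM of Gadd45b.

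Of 5 further genes listed with these families by their symbols, Cdkn2aipnl alone reached 10 CPM in non-cycling cells, at 24.2 CPM in heart cells and 32.6 CPM in spleen cells. It encodes a relative of a CDKN2A-interacting protein and is not itself a kinase inhibitor of either family. In cycling cells 3 of the 5 did. Against 7.29% of all genes, 1 of them was at least 2-fold lower in heart. This was Cdkn1c, which encodes p57 and is named here after its values were seen, at 1.86 CPM in cycling heart cells and 18.5 CPM in cycling spleen cells, where non-cycling cells held 1.64 and 0.317 CPM.

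The kinases and cyclins that the inhibitors act on, listed together with pocket proteins, showed no common direction between non-cycling heart and spleen cells. Of 16 G1 cyclins, kinases and pocket proteins, 11 had 10 CPM in non-cycling cells, with a median log2 ratio of -0.39. In heart 2 were at least 2-fold higher and 2 lower, against 8.94% and 9.16% of all genes. Cdk6, a kinase of D-type cyclins, was at 50.2 CPM in heart cells and 14.8 CPM in spleen cells, and Ccne1 (cyclin E1) at 16.9 and 7.79 CPM. Ccnd2 and Ccnd3, D-type cyclins, were lower in heart at 145 and 78.1 CPM, against 311 and 196 CPM in spleen. In cycling cells 7 of 14 G1 genes were at least 2-fold higher than in non-cycling heart cells, and 7 of 13 in spleen. The shares of all genes were 7.78% and 10.9%.

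Of 8 genes for the degradation of p27 and p21, 6 reached 10 CPM in non-cycling cells. Against 8.94% of all genes, 1 of them was at least 2-fold higher in heart. It was Dtl, part of the ligase that removes p21 in S phase, at 11.1 CPM in heart cells and 1.94 CPM in spleen cells. Cks1b, a cofactor of p27 removal, stood at 35.3 and 17.8 CPM, Rnf123 at 13.6 and 20.0 CPM, and the cullin gene Cul1 at 38.1 and 54.1 CPM. Cycling markers were also higher in non-cycling heart cells, at 310 CPM against 71.0 CPM in spleen. The part of this in the ratios of Dtl and Cks1b was not tested.

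Of 23 p53 targets, 18 had 10 CPM in non-cycling cells, with a median log2 ratio of -0.12, close to that of all genes. In heart 4 were at least 2-fold higher and 1 lower, against 8.94% and 9.16% of all genes. Those higher were Pmaip1, which encodes the pro-apoptotic protein Noxa (15.8 CPM in heart, 2.64 CPM in spleen), the p53 phosphatase gene Ppm1d (38.2 and 15.8 CPM), Plk3 (29.8 and 13.0 CPM) and the antiproliferative gene Btg2 (267 and 129 CPM). None of 16 was past 2-fold between cycling and non-cycling heart cells, against 7.78% higher and 1.41% lower of all genes, with a median of -0.27. Of 13 Gadd45 partners and stress kinases, 10 had 10 CPM, 2 were higher and 1 lower, against 8.94% and 9.16% of all genes. Map2k3, a kinase that activates p38, was at 171 CPM in heart cells and 20.6 CPM in spleen cells, and Pcna, which p21 and Gadd45 proteins bind, at 105 and 51.7 CPM. Mapk11 (p38 beta) was lower in heart at 1.70 CPM, against 18.1 CPM in spleen. Map3k4, which encodes MEKK4, was at 13.3 and 18.9 CPM.

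Of 15 quiescence and FOXO factors, 14 had 10 CPM, 4 were higher and 1 lower in heart, against 8.94% and 9.16% of all genes. Klf2, a factor of resting T cells, was at 52.8 CPM in heart cells and 890 CPM in spleen cells. Tob1 and Tob2, antiproliferative genes, were at 34.8 and 73.4 CPM in heart against 15.1 and 25.1 CPM in spleen, and Ccng2 was at 60.8 and 21 CPM. Btg2, also on this list, was the gene most like Cdkn1b over the 9 groups. Of 14 TGF-beta and SMAD genes, 13 had 10 CPM, with a median log2 ratio of 1.0. In heart 6 were higher and 1 lower, against the same shares of all genes. Pmepa1, an inhibitor of that signal, was at 436 CPM in heart cells and 9.03 CPM in spleen cells, the repressor gene Tgif1 at 153 and 8.36 CPM, Skil at 324 and 26.4 CPM, and Smad7, an inhibitory SMAD, at 393 and 56.2 CPM.

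S-phase and G2/M genes show how far the non-cycling groups were free of cycling cells. Of 18 S-phase genes, 16 had 10 CPM in non-cycling cells and 11 were higher in heart, and all 8 of 18 G2/M genes with that level were higher. The share of all genes was 8.94%. The part of remaining cycling cells in the non-cycling ratios of Ccne1, Pcna and Dtl was not tested. In cycling cells 0 of 18 S-phase genes were past 2-fold between the tissues, against 5.06% higher and 7.29% lower of all genes.

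Over the 9 groups, the genes whose log2(CPM + 1) was most like each member among 7457 genes were picked by Pearson r, which is a description over groups that share a library. For Cdkn1a they were Hk2 (r = 0.990), which encodes the glycolytic enzyme hexokinase, Pmm1 (0.990) and the inhibitory receptor gene Ctla4 (0.985). For Cdkn1b they were Btg2 (0.976), Rsbn1l (0.975) and Emb (0.972), and for Cdkn2c Cdc5l (0.988), the histone methylase gene Setd8 (0.984) and the histone gene Hist1h3g (0.984). Cdkn2d was nearest to Cyb5r1 (0.954), Eif4g2 (0.932) and Asxl1 (0.927). Gadd45b was nearest to Serp1 (0.981), Katna1 (0.980) and Tnfsf9 (0.977), and Gadd45a to Ctsl (0.958), Ddx5 (0.940) and Ints6 (0.923). Gadd45g had weaker likeness, to Twsg1 (0.782), Tspan3 (0.781) and Isg20l2 (0.756). Pearson r takes no account of the size of a change. Over the groups Cdc5l ran from 85.4 to 122 CPM, where Cdkn2c ran from 5.62 to 224 CPM. Serp1 ran from 63.8 to 106 CPM, where Gadd45b ran from 7.05 to 320 CPM. Other like genes changed more, such as Ctla4, from 16.9 to 883 CPM.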

How the data were processed

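Sorted wild-type TEa cells of the heart allograft and of the spleen were profiled with droplet 3' chemistry, per the labels' protocols, which also speak of a nuclei suspension. The values are raw UMI counts, as deposited by the authors, 1 matrix of genes by barcodes for each library. Cell Ranger 3.0.2 wrote both matrices, per the file headers. The submitters' processing notes list mm10, Cell Ranger 7.0.0 and, for later steps, Seurat 4.0.0. The Ldha-/- matrix has 32285 rows in place of 28692 and was not analysed here. The 7 genes and the 11 gene lists were chosen with earlier results of these data known.

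Of 4125 heart and 6896 spleen barcodes with at least 1000 UMIs, 4074 and 6583 passed the gene and mitochondrial limits, and 6 barcode sequences occur in both libraries. Scrublet marked 2 heart and 0 spleen barcodes, is regarded as not having worked, and only those 2 were removed, so doublets can remain. Cells over 3 times the median UMI count of their library numbered 201 in heart and 22 in spleen. Both libraries were clustered together with scanpy 1.11.5 and leidenalg 0.10.2 (2000 variable genes, 30 components, 15 neighbours, resolution 0.6). A cluster of 88 heart and 24 spleen cells was removed for its pooled monocyte or macrophage markers.

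Counts were summed per group and scaled to CPM. Ratios are log2 of (CPM + 1) over (CPM + 1), which understates differences of low genes, and a gene was called at 2-fold with at least 10 CPM in either group. Ratio intervals are exact conditional binomial intervals and shares have Clopper-Pearson intervals, all at 95% and for counting error only. A count of 0 allows 3 counts, or 0.371 and 1.29 CPM in cycling heart and spleen cells and 0.0879 and 0.0559 CPM in non-cycling ones. In a simulated heart over spleen comparison, both sides started from the same spleen levels, and the only noise added was that of counting. Of 200 genes changed 4-fold among 6493, 99.5% were recovered, with 0 unchanged genes called. Variation between libraries and between cells was left out, and changes of 2-fold were not simulated. These values therefore give no rate of false or missed calls for the real libraries. Members are all named, and each list is named by up to 4 genes with the largest absolute non-cycling ratio among those with 10 CPM. Alternatives covered library totals, weighting and thinning of cells, cell filters, the cycling rule, pseudocount, floor and heat shock cells. Gene positions are from GENCODE on GRCm38, the assembly that mm10 denotes.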

Additional observations from a re-analysis of the deposited data

Results flagged for a closer look

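Gadd45b differed in direction between the tissues: cycling cells were at 0.709 of the level of non-cycling cells in heart, while in spleen they were at 2.17 times it. The intervals of the ratios, 0.667 to 0.753 and 1.68 to 2.76, do not overlap for counting error, and the difference itself was not tested, since each tissue has 1 library. No alternative turned the direction in either tissue, though leaving out heart cluster 3 cannot change the spleen value and another pseudocount cannot turn a sign.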

How the results depend on the processing

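No paired analysis was possible because each tissue has 1 library and no replicate. The numbers of genes past 2-fold were within 1.5 times those reported in 116 values and outside in 4, but a like number can stand for other genes. In cycling over non-cycling spleen cells, leaving mitochondrial, ribosomal protein and Malat1 UMIs out of the totals gave Cdkn1a and Cdkn2c, without Cdkn2d and Gadd45b, and thinning gave Cdkn1a in place of Gadd45b. After thinning to 1000 UMIs, 1 gene (Gadd45a) was lower in cycling than in non-cycling heart cells, in place of 0. With cycling at 1 thinned UMI, 1 gene (Cdkn2c) was higher in cycling spleen cells, in place of 3. With a floor of 50 CPM, 0 genes were higher in cycling heart cells, in place of 1, since Cdkn2c is under that floor. With cycling cells taken as cluster 5, chosen after seeing the data, 2 genes (Cdkn2c and Cdkn2d) were lower in cycling heart than in cycling spleen cells, in place of 1. After thinning, Gadd45a UMIs were in 0 of 381 cycling heart cells. Under the 1-UMI rule the cycling spleen group held 439 cells, in place of 148, and Cdkn2c stood at 94.1 CPM, in place of 185. The cause of the differences under thinning and under the 1-UMI rule was not tested.

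In non-cycling cells the log2 ratio of Cdkn1a ranged between 4.96 and 6.08, and that of Gadd45b between 3.55 and 4.11. Gadd45g had 7 of 13 alternatives with the direction reported in cycling cells between tissues. Leaving mitochondrial, ribosomal protein and Malat1 UMIs out of the totals made 605 genes higher and 1259 lower in non-cycling heart cells, in place of 617 and 632, and moved the median log2 ratio of all genes to -0.33. In cycling over non-cycling cells it gave 494 higher and 213 lower genes in heart, in place of 513 and 93, and 639 higher and 824 lower in spleen, in place of 775 and 242. Higher genes were then 69.9% and 43.7% of those called, in place of 84.7% and 76.2%, with medians of -0.09 and -0.26. Thinning gave 1117 higher and 1442 lower genes in cycling heart over spleen cells, in place of 352 and 507. The 148 spleen cells then held 1000 UMIs each. Cdkn1a stood at 13.5 CPM there with UMIs in 2 cells, so genes can pass 10 CPM on very few UMIs. Ratios of Cdkn1a rest on 21 and 43 UMIs in the cycling and non-cycling spleen cells.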
